A study of Mus musculus with 4 samples.

Results

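The genes described here serve protein folding in the endoplasmic reticulum (ER) and the unfolded protein response (UPR), and their transcripts were compared between macrophages that lack a phosphatase subunit and their controls. They were chosen by name: 35 gene names, of which 31 were the single symbol of a feature in the platform annotation and 3 (Ero1l, Ero1lb and Selk) were found under the symbols Ero1a, Ero1b and Selenok that RefSeq now uses. Pdia4 shares its feature with a microRNA gene and has no value here. This left 34 genes of the 22180 with a feature of their own, and the brightest feature, by its mean of all 4 arrays, stands for a gene with several.

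Both genotypes were bone marrow derived macrophages grown for 6 days with L-cell supernatant, a source of macrophage growth factor, and then given 100 ng/ml of lipopolysaccharide (LPS) for 2 hours. The knockout genotype was PP2ACαfl/fl;lyM-Cre, in which Cre active in myeloid cells removes exon 1 of Ppp2ca, the gene of a catalytic subunit of protein phosphatase 2A. The control genotype was PP2ACαfl/fl, with the same floxed exon and no Cre. Each genotype had 2 one-colour arrays, called biological replicates in the labels without a word on separate mice, so p-values measure only how far these arrays spread, which may be partly technical. No group was left without LPS, so nothing here bears on what LPS itself changes, and a control with Cre alone was not analysed here.

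Values are log2 intensities after robust multi-array averaging, in which 1 unit is a doubling, and a difference is knockout minus control. Every pair of arrays correlated across features at 0.986 to 0.990, and the number of arrays limits the precision. Ppp2ca read 4.36 and 3.39 in knockout against 8.25 and 7.59 in control macrophages, and fell by 4.04 (SE 0.36, limma adjusted p = 0.0076). Knockout replicate 2 lies below 3.53, the median of all features used as a filter on dim genes, where differences are understated, so the drop is no exact size. The adjusted p was 0.0503 without control replicate 1 and 0.0191 to 0.0414 with any other array left out. All 8 macrophage markers on the array were well above that filter level, with means of 8.27 to 11.9. Because the RNA came from whole cultures, fewer cells that express a gene and less of its RNA per cell cannot be told apart.

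The ER folds secreted and membrane proteins with chaperones of the HSP70 and HSP90 families, lectins that bind sugar chains, and enzymes that form disulfide bonds. When unfolded proteins build up, 3 membrane sensors respond: IRE1α (Ern1), which splices the mRNA of the transcription factor XBP1, ATF6, which is cut by Golgi proteases to release a transcription factor, and PERK (Eif2ak3), which slows translation and favours ATF4. Their outputs include chaperones, translocation components and the machinery of ER-associated degradation (ERAD), which returns misfolded proteins to the cytosol. Arrays of this kind measure transcript level, and neither XBP1 splicing, ATF6 cleavage nor PERK phosphorylation was measured.

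Some of these genes carry in their promoter a sequence element that is the textbook landing site of ATF6 and XBP1. The ER stress response element (ERSE) is CCAAT, then 9 bases of any kind, then CCACG, read on either strand. It was searched for in RefSeq windows (build GRCm38.p6) of 250 bases before to 50 after each annotated start. Of the 28 of these genes with a window, 10 held an exact ERSE, which is 35.7%, against 0.137% of 27025 genes with a window. The names are known UPR genes, and several served to define the element, so its frequency is a property of the choice and not a result of the arrays. The sites are shown because they mark which of the measured genes carry the element, read from CCAAT to CCACG with both boxes in capitals.
Hspa5: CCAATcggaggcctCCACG
Syvn1: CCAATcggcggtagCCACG
Pdia6: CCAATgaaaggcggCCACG
Dnajc3: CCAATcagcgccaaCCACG
Canx: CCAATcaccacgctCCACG
Hsp90b1, distal: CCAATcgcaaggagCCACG
Hsp90b1, proximal: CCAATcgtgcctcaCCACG
Calr: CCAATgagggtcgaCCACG
Creld2: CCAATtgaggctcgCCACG
Derl3: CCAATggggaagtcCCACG
Ero1b: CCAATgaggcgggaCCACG

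The boxes lie between 26 and 212 bases before the annotated start in all of these genes, on the strand of the gene in 6 of the 11 sites. A related element, ERSE-II, is ATTGG, any base, then CCACG, and its complementary strand holds CCAAT, so that it also counts as a match to that box. It occurred in 2 of the 28 genes, 7.14% against 0.0444% of all genes with a window.
Herpud1: ATTGGgCCACG
Dnajb11: ATTGGcCCACG

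The core of another element, the UPR element (UPRE), is TGACGTG, and it was found in 1 of the 28 genes, Hspa5, or 3.57% against 2.22% of all genes. The boxes alone are common, CCAAT occurring in 78.6% of these genes and 41.1% of all genes, and CCACG in 82.1% and 35.5%. The absence of a match says only that those letters are not in the window. The 250 bases before the start are given for Herpud1 (chr8:94386179-94386428, plus strand) and for Hspa5 (chr2:34771840-34772089, plus strand), since the results contrast these genes. Capitals mark ERSE-II in Herpud1, and the UPRE core and then ERSE in Hspa5.
Herpud1: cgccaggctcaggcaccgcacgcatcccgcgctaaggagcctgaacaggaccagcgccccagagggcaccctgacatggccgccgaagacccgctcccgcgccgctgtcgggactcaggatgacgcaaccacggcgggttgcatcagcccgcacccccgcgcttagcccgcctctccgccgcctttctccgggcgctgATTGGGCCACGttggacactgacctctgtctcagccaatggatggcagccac
Hspa5: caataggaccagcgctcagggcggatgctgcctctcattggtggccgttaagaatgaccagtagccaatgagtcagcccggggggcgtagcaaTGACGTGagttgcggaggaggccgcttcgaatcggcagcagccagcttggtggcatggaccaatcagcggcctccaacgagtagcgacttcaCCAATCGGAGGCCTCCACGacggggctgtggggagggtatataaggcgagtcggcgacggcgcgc

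Herpud1 was the one gene of this group that passed the threshold in the main fit, and the number that passed depended on the settings, as given below. Of the 34 genes, 32 passed the filter on dim genes and were tested. Herpud1 was called lower and none was called higher, which does not mean that the others were unchanged. That is 1 of 32 lower against 3.49% of all 12542 tested genes, and 0 of 32 higher against 3.3%; in either direction 6.79% of all tested genes were called at a limma adjusted p of 0.05. The members' share is near or below the background, and is no result about them as a group. Counting the 31 names matched by symbol alone gave the same call, 1 of 29 tested.

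The members nevertheless lay mostly on the low side. A negative difference was found for 25 of the 32, or 78.1%, against 48.7% of all tested genes, and the median difference was -0.16 log2 units against 0.01 over all tested genes. In 22 of the 32, both knockout arrays lay below both control arrays, against 26.5% of all tested genes, and in 4 (Dnajb9, Ero1b, Ern1 and Atf6) both lay above, against 28.8%. In the other 6 (Hsp90b1, Hspa13, Pdia3, Calr, Derl1 and Derl2) the genotypes overlapped. At an unadjusted threshold of 0.05, 8 members were lower against 12.1% of all tested genes and 3 were higher against 12.6%. Genes of a common pathway are not independent of each other, and no test of the group was made. Most sizes were small. Of the 32 members 2, Herpud1 and Sdf2l1, were 1.5-fold or more apart, against 657 of all 12542 tested genes. That count is near the background and is no result about the members. For 27 of 32 (84.4%, against 74.7% of all tested genes) the 95% limma interval lay wholly within 1.5-fold in either direction.

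**Figure D1:**
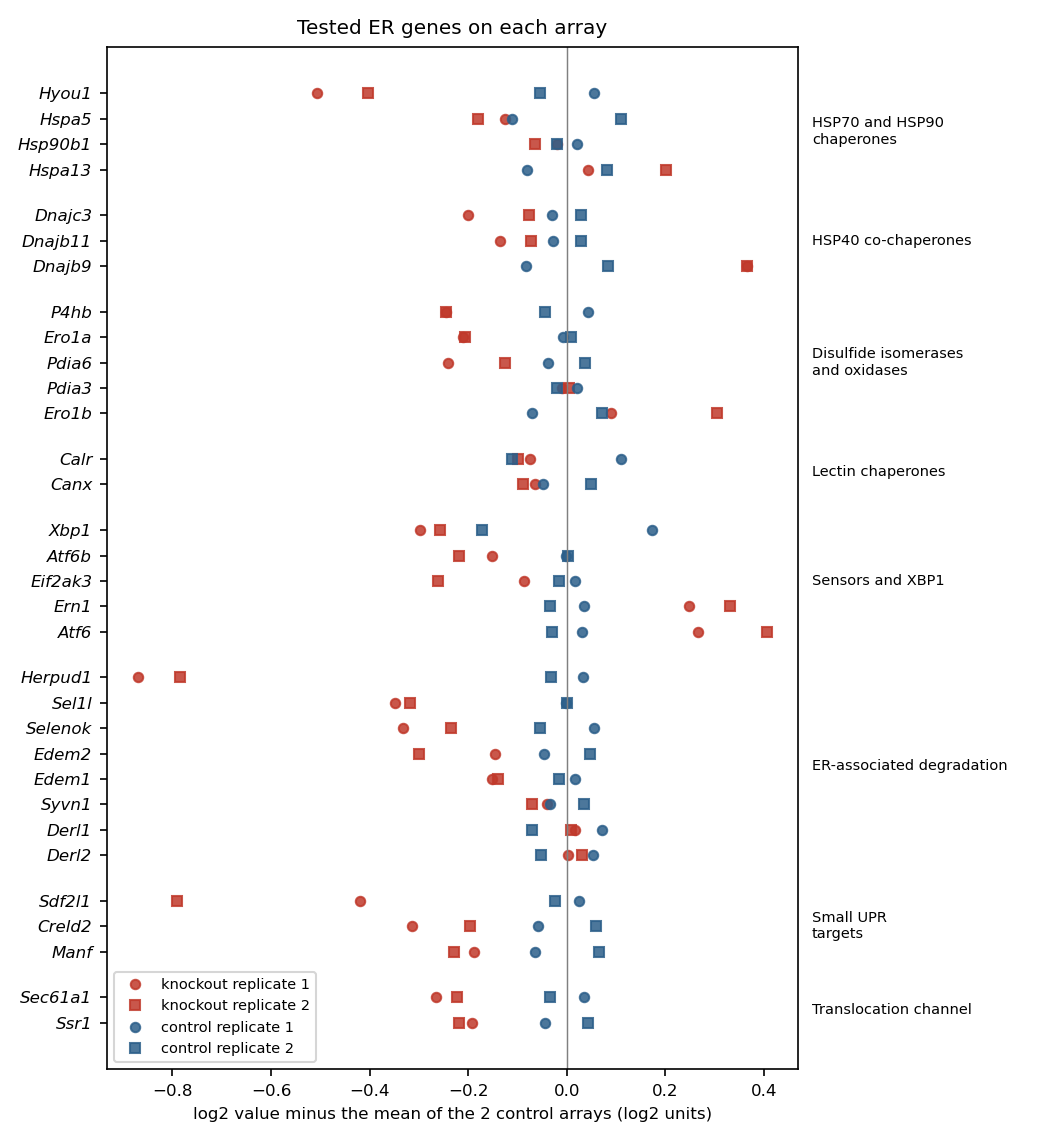
Log2 value on each array minus the mean of the 2 control arrays of that gene (x axis, log2 units) for the 32 tested genes, grouped by role; red marks are knockout and blue marks control, circles replicate 1 and squares replicate 2. Both knockout arrays of Herpud1 lie near -0.8, those of most other genes between 0 and -0.4, and those of Atf6, Ern1 and Dnajb9 above both controls.

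Degradation genes held the change that passed. Herpud1 encodes HERP, an ER membrane protein that helps to assemble the ERAD complex around the ubiquitin ligase HRD1. It read 7.97 and 8.05 in knockout macrophages, against 8.87 and 8.81 in control macrophages, a mean of 8.01 ± 0.06 against 8.84 ± 0.05 (SD, n = 2 each). The genotypes stood far apart beside gaps of 0.08 between the knockout arrays and 0.06 between the control arrays. The difference was -0.83 (SE 0.09, 95% interval -1.05 to -0.60, limma adjusted p = 0.012), or 1.77-fold lower. The size of the difference held with any array left out, from -0.87 to -0.79, but the call did not, the adjusted p being 0.0545 to 0.0875 over those 4 fits. With the replicate number as a block the adjusted p was 0.042.

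The partners of HERP in the same complex did not pass. Sel1l, the adaptor that links substrates to HRD1, read 9.27 and 9.30 in knockout and 9.62 and 9.62 in control macrophages. The arrays of each genotype nearly coincided, and the difference was -0.33 (95% interval -0.54 to -0.12, limma adjusted p = 0.080). Syvn1, the gene of HRD1 itself, differed by -0.06 (95% interval -0.27 to 0.16). It read 7.18 and 7.15 in knockout against 7.19 and 7.26 in control macrophages, so that its genotypes barely separated. The lectins and mannosidase-like proteins that mark glycoproteins for disposal, Edem1 and Edem2, differed by -0.15 and -0.22, each with both knockout arrays below both controls and neither past the threshold (limma adjusted p = 0.35 and 0.24).

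The Derlins, rhomboid-like proteins of the retrotranslocation channel, showed no separation where they could be tested. Derl1 differed by 0.01 (95% interval -0.22 to 0.25) and Derl2 by 0.02 (95% interval -0.21 to 0.24), with overlapping genotypes. Derl3 was below the filter, at 3.04 and 3.27 in knockout and 2.97 and 2.88 in control macrophages, and was not tested. Selenok, a small selenoprotein that binds Derlins and takes part in calcium flux in immune cells, read 4.77 and 4.87 in knockout against 5.16 and 5.05 in control macrophages. Its difference was -0.28 (limma adjusted p = 0.14).

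Among the chaperones, the central one did not pass, with a difference close to the members' median of -0.16. Hspa5 encodes BiP, the HSP70 of the ER, whose induction is the usual readout of the UPR. It read 9.46 and 9.41 in knockout and 9.48 and 9.70 in control macrophages, both knockout arrays lying below both controls. The control arrays were farther apart, by 0.22, than the means of the genotypes, and the difference of -0.15 did not pass (95% interval -0.42 to 0.12, limma adjusted p = 0.44). Hsp90b1, the gene of GRP94, read 11.23 and 11.19 in knockout against 11.27 and 11.23 in control macrophages, a difference of -0.04 (95% interval -0.26 to 0.17). Both intervals exclude a change of 1.5-fold in either direction.

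Hyou1, the large HSP70-like chaperone that exchanges the nucleotide of BiP, came closest to the threshold after Herpud1. It read 8.24 and 8.34 in knockout against 8.80 and 8.69 in control macrophages, with no overlap. The difference was -0.46 (95% interval -0.69 to -0.22, limma adjusted p = 0.053), so it did not pass. It did with quantile normalization (0.043) and median centring of the arrays (0.044), but not with the replicate block (0.11), without a filter (0.121), without pooling of the variance (0.226) or with any 1 array left out (0.103 to 0.225). Hspa13, an atypical HSP70 of microsomes, differed by 0.12, with overlapping genotypes.

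The co-chaperones that drive the HSP70 cycle went different ways. Dnajb9 encodes ERdj4, which binds IRE1α and brings BiP to it. It read 8.78 and 8.78 in knockout against 8.33 and 8.50 in control macrophages. Here the knockout arrays coincided above both controls, and the difference of 0.37, the highest of the 32, did not pass (95% interval 0.12 to 0.61, limma adjusted p = 0.091). Dnajb11 and Dnajc3, the genes of ERdj3 and of p58IPK, an inhibitor of PERK, differed by -0.10 and -0.14 and did not pass (limma adjusted p = 0.51 and 0.41).

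The lectin chaperones calreticulin (Calr) and calnexin (Canx), which hold glycoproteins during folding, differed by -0.09 and -0.08. Calr read 11.38 and 11.35 in knockout against 11.56 and 11.34 in control macrophages, so that 1 control array lay below both knockout arrays. Canx read 11.33 and 11.30 in knockout against 11.34 and 11.44 in control macrophages. Neither passed, with a limma adjusted p of 0.67 for Calr and 0.65 for Canx.

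None of the 5 tested enzymes of disulfide bonding passed, 4 having negative differences and Ero1b a positive one. P4hb, the gene of protein disulfide isomerase, read 10.05 and 10.04 in knockout against 10.33 and 10.25 in control macrophages. The knockout arrays nearly coincided below both controls, and the difference was -0.25 (95% interval -0.46 to -0.03, limma adjusted p = 0.16). Ero1a, the oxidase that recharges it, differed by -0.21 (limma adjusted p = 0.20), while its paralog Ero1b differed by 0.20 (limma adjusted p = 0.35). Pdia6 differed by -0.18 and Pdia3, which works with calnexin and calreticulin, by -0.00 (95% interval -0.21 to 0.21).

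The sensors of the UPR moved in no common direction, and none passed. Ern1, the gene of IRE1α, read 7.67 and 7.76 in knockout against 7.46 and 7.39 in control macrophages, a difference of 0.29 (95% interval 0.06 to 0.51, limma adjusted p = 0.12). Atf6 read 10.38 and 10.52 in knockout against 10.15 and 10.09 in control macrophages, a difference of 0.34 (95% interval 0.10 to 0.57, limma adjusted p = 0.10). In both genes the knockout arrays were the higher ones, without overlap. Its paralog Atf6b read 7.79 and 7.72 in knockout against 7.94 and 7.95 in control macrophages, a difference of -0.19 (limma adjusted p = 0.26). Eif2ak3, the gene of PERK, read 6.65 and 6.47 in knockout against 6.75 and 6.72 in control macrophages, a difference of -0.17 (limma adjusted p = 0.34). These last genes thus had the opposite order, again without overlap.

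Xbp1 carried the widest spread among the controls. It read 8.78 and 8.82 in knockout against 9.25 and 8.91 in control macrophages, and the difference of -0.28 did not pass (SE 0.13, 95% interval -0.61 to 0.06, limma adjusted p = 0.27). Control replicate 1 stood 0.35 above control replicate 2, more than the difference itself. The interval therefore extends past 1.5-fold on the low side. The feature does not tell the spliced from the unspliced form.

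**Figure D2:**
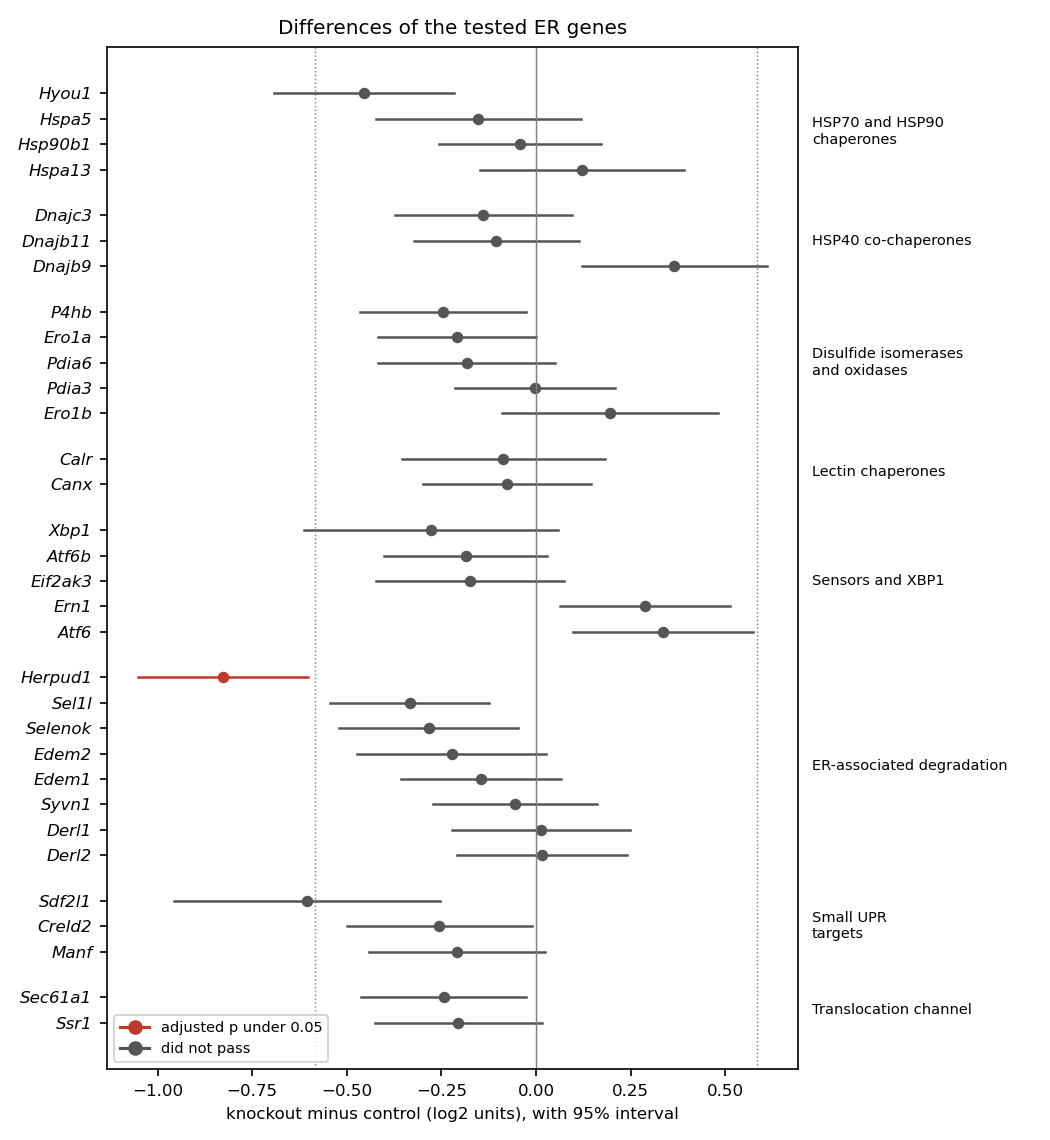
Knockout minus control for each of the 32 tested genes (x axis, log2 units; dots, limma estimate; lines, 95% interval), grouped by role, with dotted lines at 1.5-fold in either direction. The interval of Herpud1 (red), -1.05 to -0.60, lies wholly beyond 1.5-fold, and the intervals of 27 genes lie between the dotted lines.

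Small luminal or secreted targets of the UPR all had negative differences. Sdf2l1, which keeps BiP clients from aggregating together with ERdj3, read 7.64 and 7.27 in knockout against 8.08 and 8.03 in control macrophages. The genotypes did not overlap, but the knockout arrays were 0.37 apart, and the difference of -0.61 did not pass (SE 0.14, 95% interval -0.96 to -0.25, limma adjusted p = 0.067). Creld2, a secreted disulfide isomerase-like protein, differed by -0.26 (limma adjusted p = 0.19). Manf, a stress-induced secreted factor, differed by -0.21 from a mean of 3.81 in knockout and 4.02 in control macrophages, close to the filter level, where differences are understated.

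Components of the translocation channel showed the same order. Sec61a1, the pore-forming subunit, read 9.39 and 9.44 in knockout against 9.70 and 9.63 in control macrophages. No arrays overlapped, and the difference was -0.24 (95% interval -0.46 to -0.03, limma adjusted p = 0.16). Ssr1, of the translocon-associated protein complex, differed by -0.21 (limma adjusted p = 0.23). Sec61b had 2 features, both below the filter, with means of 3.05 in knockout and 3.17 in control macrophages for the brighter one, and was not tested.

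Other features were at hand for 4 of the tested genes, all dimmer than the ones used. The second feature of Ero1a read 4.75 and 4.74 in knockout against 5.75 and 4.98 in control macrophages, a difference of -0.62. That of Ssr1 differed by -0.45, that of Edem1 by -0.52 and that of Derl2 by -0.46. In Ero1a, Ssr1 and Edem1 the sign was that of the brighter feature, whereas in Derl2, at 0.02 for the brighter feature, the features disagreed. The second features of Derl2 and Edem1 lie at 3.48 and 3.61, about the filter level.

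**Figure D3:**
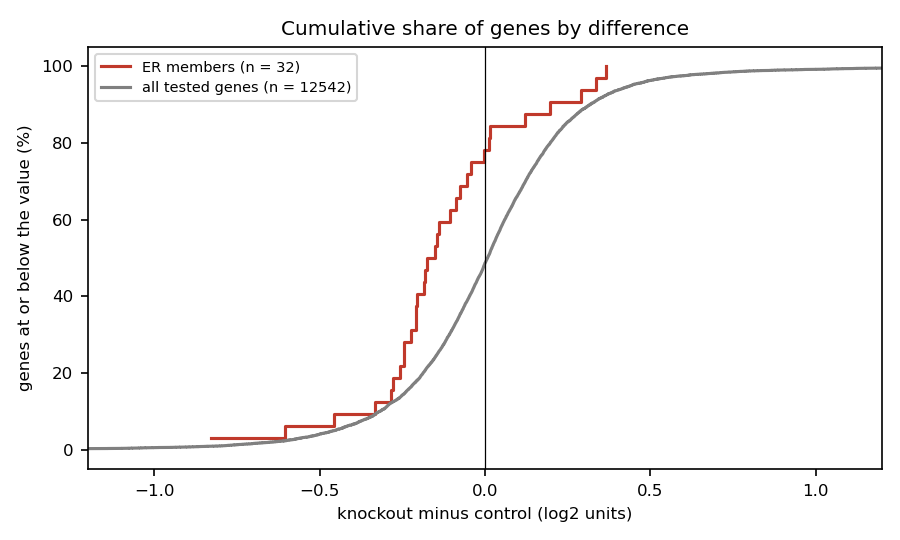
Cumulative share of genes (y axis, %) at or below a given difference, knockout minus control (x axis, log2 units, shown from -1.2 to 1.2), for the 32 tested ER genes (red) and all 12542 tested genes (grey). The red curve reaches 78.1% at 0, against 48.7% for the grey one, and meets it at the low end, where Herpud1 is the lowest member.

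The number of members called depended on the settings of the fit. With a prior variance that follows the intensity 7 of 32 were called, against 12.6% of all tested genes, a share that was 6.79% in the main fit. Herpud1, Hyou1, Sdf2l1, Sel1l and P4hb were lower and Atf6 and Dnajb9 higher in that fit. With genes under a mean of 5 log2 units left out, 6 of 30 were called, against 17% of the genes then tested; these were the same genes without P4hb. Leaving out any array left 0 of 32 called, as did limma without pooling of the variance, which called 0 of 12542 genes with 2295 at an unadjusted p under 0.05.

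Genes with and without the promoter elements were then set side by side. Of the 10 genes with an ERSE in the window, 9 were tested and 0 were called, with differences of -0.26 to 0.20 and a median of -0.09. With the 2 ERSE-II genes added, 1 of 11 was called, Herpud1, and the median was -0.10. Of the 15 tested genes with neither element in the window, 0 were called and the median was -0.21. Over all tested genes 6.79% were called, so these counts are no result about the elements. The difference between genes with and without an element was not tested. Of the ERSE-II genes, Herpud1 differed by -0.83 and Dnajb11, whose element lies within the 50 bases after the annotated start, by -0.10. Sdf2l1 and Hyou1 had the lowest differences after Herpud1; the window of Sdf2l1 held neither ERSE nor ERSE-II, and Hyou1 had no window here.

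Related genes of the secretory pathway, of the PERK and ATF4 arm and of the cytosolic chaperones were counted in 7 lists, each gene once, and 133 of them were tested. In all, 7 fell and 3 rose, 7 of these calls being in the PERK and ATF4 list and 3 among the 116 other genes. The total is 7.52% against 6.79% of all tested genes, with a median of -0.06. Of 20 further folding enzymes and lectins 1 fell, Txndc5, a disulfide isomerase of the ER, which read 7.22 and 7.30 in knockout against 7.76 and 7.76 in control macrophages (difference -0.50, limma adjusted p = 0.035). Of 29 translocation and oligosaccharyltransferase genes 1 fell, Spcs3 of the signal peptidase, at 9.07 and 9.20 in knockout against 9.59 and 9.59 in control macrophages (difference -0.46, limma adjusted p = 0.049). Of 19 further ERAD genes, 22 genes of COPII vesicles and ER exit and 9 cytosolic chaperones, none passed, with medians of -0.03, -0.07 and -0.07; unadjusted p was under 0.05 for 4, 3 and 3 of them, against 24.7% of all tested genes. Neither Txndc5 nor Spcs3 passed with the replicate number as a block (0.084 and 0.098) or with any 1 array left out (0.101 to 0.176 and 0.118 to 0.22).

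Upstream regulators held 1 gene that rose. Of 17 genes of UPR signalling and its proteases 1 was called, or 5.88%, against 6.79% of all tested genes, so the count is no result about the list. Crebrf rose, which encodes a protein that binds and promotes loss of CREB3, a transcription factor of the ER membrane. It read 8.20 and 8.27 in knockout against 7.39 and 7.54 in control macrophages, higher by 0.77 (SE 0.10, limma adjusted p = 0.016). It also passed with the replicate block (0.044), but not with any 1 array left out (0.0545 to 0.114). Over the 17 genes the list had a median of 0.07.

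In the list of the PERK arm and ATF4 targets, 7 of 17 tested genes were called, 41.2% against 6.79% of all tested genes, with a median of -0.13. These targets are shared with other kinases of translation factor eIF2α, which sense amino acids and heme. Slc7a11 at -1.60, Psat1 at -1.17, Chac1 at -0.99, Asns at -0.97 and Phgdh at -0.76 fell, and Ddit3, the gene of CHOP, at 0.49 and the lipoprotein receptor gene Vldlr at 0.51 rose. Atf4 itself differed by -0.32 and did not pass (limma adjusted p = 0.11). Of the 17 differences, called or not, 11 were negative and 6 positive. The mean of Phgdh in knockout macrophages, 3.51, and that of Vldlr in control macrophages, 3.46, lay below the filter level, which these genes passed through the other genotype (4.27 for Phgdh in control and 3.97 for Vldlr in knockout macrophages). Their differences are therefore no exact sizes, and without both 5 genes of the list were called. With the replicate number as a block 4 were called (Slc7a11, Chac1, Psat1 and Asns), and with 1 array left out 1 or 2. Slc7a11 passed in all 4 of those fits (adjusted p 0.0278 to 0.0338), Psat1 in 1 of them, without knockout replicate 2, and the other 5 in none. Atf4, Phgdh, Ddit3 and Vldlr were picked for naming after their values were seen. Those that fell serve cystine uptake, serine and asparagine synthesis and glutathione breakdown, and none of them is a chaperone. The list was written with earlier results of these data known, and the difference between this list and the ER genes was not tested.

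**Figure D4:**
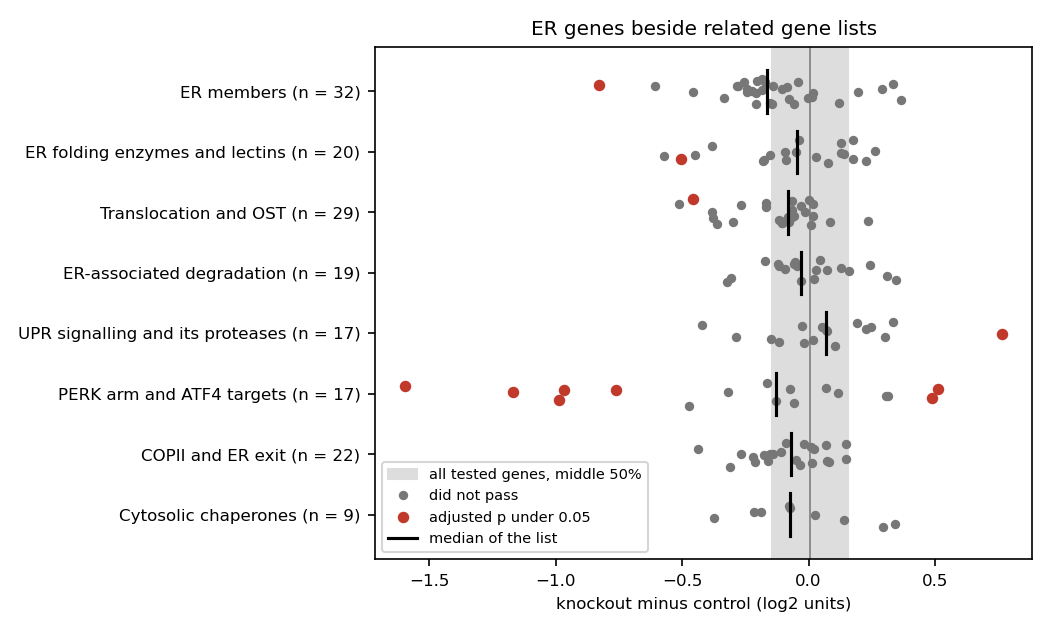
Knockout minus control (x axis, log2 units) for each tested gene of the ER group and of the 7 related lists, with red dots for genes that passed, a black bar at the median of the list and a grey band for the middle 50% of all tested genes; vertical scatter within a list carries no meaning. Herpud1 is the lone red dot among the ER genes, and 7 of 17 dots are red in the PERK and ATF4 list.

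Markers of other cells were read because plasma cells and other secretory cells are rich in ER transcripts. Of 8 B and plasma cell markers on the array, 3 were tested and 1 fell, Sdc1, at -0.69 (limma adjusted p = 0.027, and 0.068 to 0.141 with 1 array left out). Cd79b differed by 0.21, with both knockout arrays above both controls, and did not pass (limma adjusted p = 0.22), and Ighm differed by -0.002. The plasma cell gene Jchain had means of 2.58 in knockout and 2.61 in control macrophages, and Mzb1 3.13 and 3.14, both below the filter level. Of the other untested markers, Cd79a (3.15 against 2.96) and Pou2af1 (3.51 against 3.38) had higher means in knockout macrophages. Ms4a1 had a lower one (2.47 against 2.54). The summed level of the list was 8.46 and 8.53 log2 units in knockout against 8.59 and 8.53 in control macrophages, and the genotypes overlapped. None of the tested markers of neutrophils (4), dendritic cells (2), T and NK cells (2) or fibroblasts (3) passed. All 4 tested neutrophil markers, of 9 on the array, had positive differences. In 3 of them both knockout arrays lay above both controls, against 28.8% of all tested genes. Ltf differed by 0.34 (limma adjusted p = 0.083). Mpo, 1 of these 3, had a mean of 3.47 in control macrophages, below the filter level, and passed the filter through 3.72 in knockout macrophages. Of the untested neutrophil markers, S100a8, Elane, Cebpe and Camp had lower means in knockout macrophages and Ly6g a higher one. The summed level of that list was 7.21 and 7.10 in knockout against 7.06 and 7.03 in control macrophages, both knockout arrays being the higher ones. Of the 8 macrophage markers Fcgr1 rose, by 0.94 (limma adjusted p = 0.016, and 0.0546 to 0.0974 with 1 array left out), and the summed level of the list was 14.149 and 14.145 in knockout against 14.067 and 13.958 in control macrophages, both knockout arrays being the higher ones. The part of these shifts in the values of the ER genes was not tested.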

How the data were processed

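The deposited table holds log2 intensities of 41345 features on 4 arrays. The authors made these log2 values by robust multi-array averaging, with background adjustment and normalization between arrays, per the series' design text in the labels; RMA and oligo are named in the submitters' processing notes. A change of total RNA per cell is lost in such normalization.

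Features with exactly 1 symbol in the platform annotation (23521, from 22180 genes) were used, the brightest per gene. Genes whose mean reached 3.53, the median of all features, were tested (12542) with limma (version 3.58.1, R 4.3.3) by lmFit followed by eBayes with a constant prior and no block, two-sided, with Benjamini-Hochberg adjustment over all of them and a threshold of 0.05. The prior had 3.51 degrees of freedom beside 2 residual ones. The fit was also run on simulated data with spreads drawn from its own fitted prior and independent errors. Such data meet the assumptions of the fit, so they cannot test them, and no conclusion is drawn from that run. Same-numbered arrays did not deviate together (r = -0.04 across genes), so numbers were not taken as pairs. Members, lists, motifs and alternatives were chosen with earlier results of these data known. Named were all members, Ppp2ca, up to 4 called genes per related list and up to 3 per marker list. Further genes were named after their values were seen. These were Atf4, Phgdh, Ddit3, Vldlr, Ltf, the other named neutrophil markers and the named B and plasma cell markers other than Sdc1. Alternatives covered filters, scaling, features, variance models, the block and each array.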

Additional observations from a re-analysis of the deposited data

How the results depend on the processing

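The count of members lower in knockout, 1, became 4 with the stricter filter, 5 with the intensity trend, 2 each with quantile normalization, median centring and a 1.5-fold cutoff on means, 0 without pooling of the variance and 0 with any 1 array left out, where the lone array was assumed to vary like the other genotype. The count higher, 0, became 2 with the stricter filter and 2 with the intensity trend. The count over all genes, 852, became 333 without a filter, 1475 with the stricter filter, 1584 with the trend, 0 without pooling, 312 with the replicate block and 96 to 174 with 1 array left out. The related lists' total of 10 became 4, 18, 22, 0 and 5 in the same order, 6 at the fold cutoff and 1 to 2 with 1 array left out. The members' median of -0.16 was -0.15 without a filter and with the stricter one, -0.20 with median centring, -0.18 with the mean of features, and -0.16 to -0.15 with 1 array left out. The replicate block kept Herpud1 as the called member, and the 1.5-fold cutoff took in 657 of all tested genes. Signs turned in genes that did not pass: Derl1 to -0.0294 and Derl2 to -0.0252 with median centring, Derl2 to -0.22 with the mean of features, and, over the fits with 1 array left out, Pdia3 (-0.0234 to 0.0172), Calr (-0.197 to 0.024), Derl1 (-0.0585 to 0.0831) and Derl2 (-0.0364 to 0.0693). Stricter filters and fewer arrays change the number of genes or samples; other causes were not tested. Signals near the filter level limit Manf, Derl3, Sec61b and the second features of Derl2 and Edem1, and, in 1 genotype, Ppp2ca, Phgdh, Vldlr and Mpo.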
